A study of Mus musculus with 155 samples.

Results

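The 10 genes described here mark pluripotent cells of the mouse embryo. The 7 general members (Pou5f1, Sall4, Utf1, Zscan10, Dppa4, Dppa5a and Fgf4) are genes that embryonic stem cells (ESCs) express, and the 3 primed members (Fgf5, Otx2 and Pou3f1) mark the later epiblast that is ready to form the germ layers. They were taken by name from the count tables of 55471 Ensembl genes, and all 10 were found by matching the identifiers to mouse symbols. The tables hold 42 RNA-seq libraries, 32 of ESCs, 6 of retinoic acid (RA)-treated cells and 4 of oligodendrocyte precursor cells (OPCs).

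All groups came from KH2 mouse ESC clones that carry 1 extra, doxycycline (Dox)-inducible copy of histone H3.3 with a SNAP-HA tag. The extra copy was the normal protein (WT-H3.3), the mutant in which lysine 27 is methionine (H3.3K27M) or the mutant in which it is leucine (H3.3K27L). A further ESC group was WT-H3.3 cells given GSK343, an inhibitor of the H3K27 methyltransferase PRC2. ESC libraries were made after 4, 8, 24 and 72 h of Dox, with 2 replicates for each of the 4 groups at each time. ESCs grew in serum with LIF and 2i, that is inhibitors of MEK and GSK3. RA-treated cells lost LIF and 2i and received RA, and there was 1 library for each of the 3 lines at 24 and at 72 h of Dox. OPCs were derived through embryoid bodies with RA and purmorphamine, and there was 1 library each for WT-H3.3 and H3.3K27M at 24 and at 72 h of Dox. The study compared the mutants with WT-H3.3 to separate effects of H3.3K27M from those of PRC2 inhibition, in ESCs and during differentiation. Each line is a selected clone, so a line difference cannot be told apart from a clone difference. The clones share a possible duplication of chromosome 8, and genes on it were left out of all tests. No member lies on that chromosome.

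In the early embryo, Pou5f1 (Oct4) is the POU factor that pluripotent cells need, and it binds DNA together with Sox2. Naive ESCs, held by LIF and 2i, resemble the epiblast before implantation. When MEK is free to signal, Fgf4 made by the cells themselves drives ERK, and the cells pass to a formative and then a primed state in which Fgf5, Otx2 and Pou3f1 are switched on while Pou5f1 stays on. RA, by contrast, closes the pluripotency program and turns ESCs towards neural or extraembryonic endoderm fates, depending on the culture. Pou3f1, also known as SCIP, is used again later in glial cells.

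The stretches before the start sites of 5 members are shown first, so that 4 general genes that fell in RA-treated cells can be set beside Fgf5, the primed gene that rose. RefSeq start sites (build GRCm38.p6) were at hand for 6 of the 10 members, the sixth being Otx2 with 4 start sites, which are not printed. Pou5f1 has a second start site whose stretch (chr17:35508557-35508806, on the plus strand) is not printed either, and it held 1 match, a CCAAT box. For the 5 members printed, the 250 bases before the first listed start are printed, 5′ to 3′. Capitals mark the motifs searched, on both strands.
Pou5f1 (chr17:35505782-35506031, plus strand): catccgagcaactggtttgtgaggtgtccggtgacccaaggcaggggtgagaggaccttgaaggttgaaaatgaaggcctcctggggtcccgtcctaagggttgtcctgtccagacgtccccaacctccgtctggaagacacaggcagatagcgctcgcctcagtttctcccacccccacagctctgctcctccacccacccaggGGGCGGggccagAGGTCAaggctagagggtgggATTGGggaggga
Utf1 (chr7:139943606-139943855, plus strand): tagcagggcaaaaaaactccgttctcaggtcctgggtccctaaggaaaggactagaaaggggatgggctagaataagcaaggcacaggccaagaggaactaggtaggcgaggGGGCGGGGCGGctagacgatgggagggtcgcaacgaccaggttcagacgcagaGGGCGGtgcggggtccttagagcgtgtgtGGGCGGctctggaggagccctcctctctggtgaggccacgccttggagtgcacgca
Zscan10 (chr17:23600576-23600825, plus strand): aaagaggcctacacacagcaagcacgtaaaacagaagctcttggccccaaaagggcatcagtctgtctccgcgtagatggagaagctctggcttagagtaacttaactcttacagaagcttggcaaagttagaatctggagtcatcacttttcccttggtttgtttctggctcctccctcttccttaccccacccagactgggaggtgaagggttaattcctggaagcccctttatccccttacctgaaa
Fgf4 (chr7:144861136-144861385, plus strand): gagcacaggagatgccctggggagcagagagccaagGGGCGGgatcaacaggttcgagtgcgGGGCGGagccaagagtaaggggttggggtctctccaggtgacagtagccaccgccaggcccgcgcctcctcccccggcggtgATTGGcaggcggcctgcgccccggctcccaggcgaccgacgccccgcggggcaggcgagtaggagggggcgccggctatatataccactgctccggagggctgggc
Fgf5 (chr5:98253934-98254183, plus strand): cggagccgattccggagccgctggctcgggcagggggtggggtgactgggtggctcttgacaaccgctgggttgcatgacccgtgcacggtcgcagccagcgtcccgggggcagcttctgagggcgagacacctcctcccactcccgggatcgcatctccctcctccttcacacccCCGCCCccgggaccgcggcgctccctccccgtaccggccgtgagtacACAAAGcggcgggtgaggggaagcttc
The motifs were the octamer ATGCAAAT, the Sox motif ACAAAG, the nuclear receptor motif AGGTCA, the GC box GGGCGG, the TATA box TATAAA, the E-box CACGTG and the CCAAT box CCAAT. The Pou5f1 stretch held a GC box that begins 45 bases before the start, an AGGTCA that begins 33 bases before it and a CCAAT box on the other strand. The Utf1 stretch held 4 GC boxes, the first pair overlapping. The Fgf4 stretch held 2 GC boxes and a CCAAT box, and Zscan10 held none of the 7 motifs. The Fgf5 stretch held a GC box and a Sox motif, the latter 27 bases before the start. Among 32851 RefSeq stretches of the same length, 32.7% held the GC box, 33.8% the CCAAT box, 14.0% AGGTCA and 16.5% the Sox motif, so each is common. The octamer was in 1.6% of all stretches, the TATA box in 12.4% and the E-box in 6.02%, and none of these 3 was in the 5 printed. These matches describe letters only and were not tested for binding.

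In the mm9 annotation that fits the tables, Pou5f1 (ENSMUSG00000024406) lies at chr17:35642982-35647721, Sall4 (ENSMUSG00000027547) at chr2:168573832-168593443 and Utf1 (ENSMUSG00000047751) at chr7:147129688-147131011. Zscan10 (ENSMUSG00000023902) lies at chr17:23737823-23747986, Dppa4 (ENSMUSG00000058550) at chr16:48283848-48294405, Dppa5a (ENSMUSG00000060461) at chr9:78214859-78215984 and Fgf4 (ENSMUSG00000050917) at chr7:152047291-152051148. The primed members are Fgf5 (ENSMUSG00000029337) at chr5:98683203-98706049, Otx2 (ENSMUSG00000021848) at chr14:49277354-49287319 and Pou3f1 (ENSMUSG00000090125) at chr4:124334889-124337899. The identifier that carries the Pou3f1 counts is annotated there as a pseudogene over the Pou3f1 locus, so its counts are those of reads assigned to this model. Pou5f1 and Dppa5a have close copies elsewhere in the genome, and reads shared with a copy could be lost or misplaced.

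Levels are given as CPM, a gene's counts per 1000000 counts of its library. Library totals ran from 1247934 to 22269533 counts, except for the H3.3K27L ESC library at 72 h, replicate 2, which had 68378. A count of 0 allows up to 3 counts, which is 0.135 to 2.4 CPM in the other libraries and 43.9 CPM in that small one, for counting error only. The libraries also differed in how their counts fell on long genes, here protein-coding genes with more than 6000 bases of exon. That share was 16.5 to 21.2% in 16 ESC libraries and 23.2 to 27.2% in the other 16, which include all 8 libraries of 72 h. It was 30.1 to 33.1% in RA-treated cells at 24 h, 19.8 to 20.9% at 72 h, and 19.2 to 20.3% in OPCs. Libraries were made with 1 of 2 kits, 1 of which reads only 3′ ends, and the sources used here do not say which library had which. Levels are therefore compared between libraries and never between genes. Between states, the count table, the kit and the state cannot be told apart. All comparisons of RA-treated cells or OPCs with ESCs below carry this limit. The labelled cell types were checked against markers. OPC markers (Olig1, Olig2, Cspg4 and others, 6 genes) summed to 479 to 505 CPM in WT-H3.3 OPCs and 1620 to 1740 CPM in H3.3K27M OPCs, against 21.9 to 55.7 CPM in ESCs with over 1000000 counts. Of these, Pdgfra was at only 0.533 to 0.723 CPM in H3.3K27M OPCs and 14.4 to 21.6 CPM in WT-H3.3 OPCs, and Sox10 at 0.133 to 3.14 CPM in all 4. Extraembryonic endoderm markers (Gata6, Dab2, Sox17 and others, 6 genes) summed to 386 to 2050 CPM in RA-treated cells. In the same ESC libraries they summed to 4.79 to 17.2 CPM. Fibroblast markers (7 genes) summed in RA-treated cells to 252 to 409 CPM at 24 h and 47.4 to 148 at 72 h, against 1.7 to 11.5. Neural progenitor genes (7 matched) summed to 165 to 472 CPM at 24 h and 59.4 to 134 at 72 h, against 79.5 to 269. Of the 5 tested, 4 were called higher than in ESCs, where 26.1% of all genes were. Of the OPC list, Pdgfra was at 62.2 to 335 CPM in RA-treated cells.

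**Figure D1:**
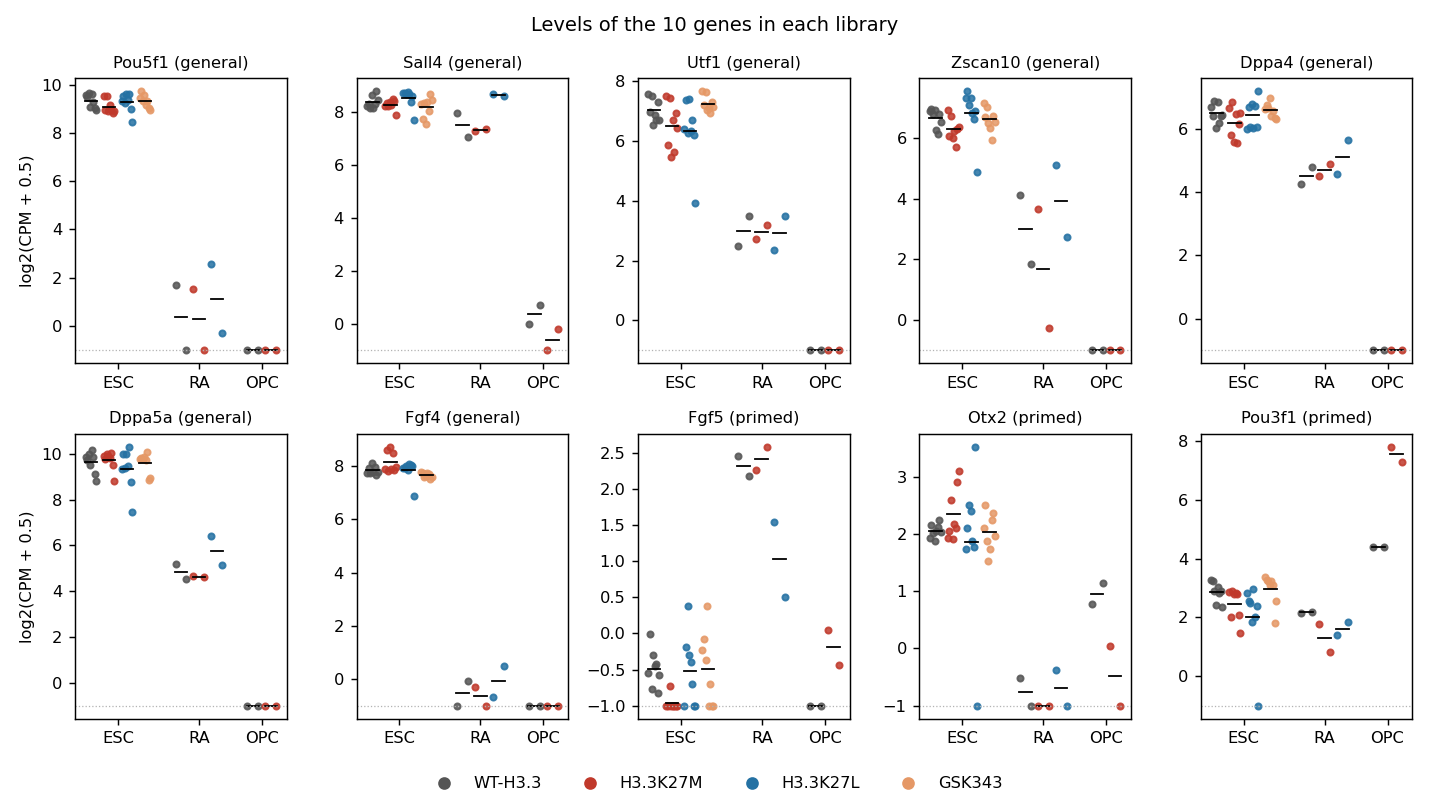
Level of each of the 10 genes in every library, as log2(CPM + 0.5), by state and line, with 1 point per library and a black bar at the mean of the group. The dotted line is 0 counts. The general genes sit high in all ESC groups and at 0 counts in OPCs, apart from Sall4, whereas Pou3f1 is highest in H3.3K27M OPCs.

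All 7 general members were detected in every ESC library. Over the 31 ESC libraries with at least 1000000 counts, Pou5f1 ranged from 453 to 844 CPM with a median of 632, and Dppa5a, a KH-domain protein of early embryos, from 435 to 1260 with a median of 882. Sall4, a zinc-finger partner of Pou5f1, ranged from 187 to 435 CPM with a median of 326. Fgf4, the ligand by which ESCs signal to each other, ranged from 182 to 422 CPM with a median of 234. Utf1, a chromatin-bound cofactor of undifferentiated cells, was at 44.3 to 203 CPM with a median of 124. Zscan10, a zinc-finger factor that binds Sox2 and Pou5f1, ranged from 52.1 to 187 CPM, and Dppa4, a DNA-binding partner of Dppa2, from 46.4 to 126.

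The primed members had few counts in every ESC group. Fgf5, the ligand that defines the primed epiblast, was at 0 counts in 12 of these 31 libraries and reached 0.803 CPM at most. Otx2, a homeobox factor that moves Pou5f1 to new enhancers at the exit from the naive state, was at 2.4 to 11 CPM with a median of 3.78. Pou3f1 was at 2.25 to 9.92 CPM with a median of 6.63. The 11 naive genes matched (Nanog, Esrrb and others), which mark the state that LIF and 2i hold, summed to 3350 to 4770 CPM.

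None of the members was called in any of the 3 comparisons of ESC groups with WT-H3.3. A call here meant an adjusted p under 0.05 and a change of more than 2-fold, in edgeR's quasi-likelihood test over 8 libraries a group with Benjamini-Hochberg adjustment. Of 14076 genes tested, 0.0142% were called for H3.3K27M, 3.45% for H3.3K27L and 0.0% for GSK343, so 0 of 9 tested members is near the background in each. For GSK343, 684 genes had an unadjusted p under 0.05 and DESeq2 also called 0. For H3.3K27M, 1625 genes had an unadjusted p under 0.05 and DESeq2 called 4. The median log2 fold change of the 7 general members was -0.23 for H3.3K27M, -0.04 for H3.3K27L and -0.06 for GSK343, against -0.01, 0.00 and -0.01 over all genes.

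Single members showed how wide the intervals remain. Fgf4 averaged 296 ± 81 CPM in H3.3K27M (SD, n = 8) and 230 ± 24.5 in WT-H3.3 (n = 8), a log2 difference of 0.36 with a standard error of 0.13 and an adjusted p of 0.296 in edgeR. The groups overlapped, and the 3 highest H3.3K27M libraries, at 364, 387 and 422 CPM, were replicate 2 at 24, 4 and 8 h. Zscan10 differed by -0.34 (SE 0.15, adjusted p = 0.37) in H3.3K27M, and in H3.3K27L by 0.36 (SE 0.15, adjusted p = 0.151), from edgeR. Pou3f1 differed by -0.43 (SE 0.18, adjusted p = 0.365) in H3.3K27M, and in H3.3K27L by -0.44 (SE 0.19, adjusted p = 0.171), again from edgeR. Pou5f1 itself averaged 556 ± 118 CPM in H3.3K27M, 632 ± 145 in H3.3K27L, 646 ± 120 in GSK343 and 656 ± 126 in WT-H3.3 (SD, n = 8 each).

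Fgf5 was too low for the filter on low counts in ESCs, but its few counts were uneven. All 8 WT-H3.3 libraries had 1 to 7 Fgf5 counts, 22 in all, whereas 7 of 8 H3.3K27M libraries had 0 and the last had 1. H3.3K27L had 27 counts with 3 libraries at 0, and GSK343 had 10 counts with 3 libraries at 0. In an edgeR fit with every gene that had a count, Fgf5 was called lower in H3.3K27M, with a log2 fold change of -3.49 (SE 0.97) and an adjusted p of 0.0302, where 0.47% of 33848 genes were called. The pooled H3.3K27M level was 0.0148 CPM with a 95% counting interval of 0.000375 to 0.0826, and the WT-H3.3 mean of 0.223 ± 0.136 CPM (SD, n = 8) was 15.1 times as high. Most of these values lie at or under 3 counts a library, so the difference concerns a gene near its detection limit in both groups.

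Otx2 was uneven between the lines at 72 h. At 72 h it was at 7.03 and 8.08 CPM in the H3.3K27M libraries and at 11 CPM in the deep H3.3K27L library, against 4.23 and 3.58 in WT-H3.3 and 4.69 and 3.42 with GSK343. The small H3.3K27L library had 0 counts, where 3 counts would be 43.9 CPM. From 4 to 24 h, Otx2 stayed between 2.4 and 5.52 CPM in all groups. A contrast at 72 h alone, chosen after these values were seen, put H3.3K27M above WT-H3.3 by 1.00 (SE 0.31) and H3.3K27L by 1.43 (SE 0.36) on the log2 scale. Neither passed, with adjusted p of 1 and 0.281 in edgeR.

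With longer Dox, 3 general members were lower in ESCs, each by less than 2-fold. Comparing the 16 ESC libraries of 24 and 72 h with the 16 of 4 and 8 h, Pou5f1 differed by -0.35 (SE 0.09, adjusted p = 0.0114), Dppa5a by -0.43 (SE 0.11, adjusted p = 0.0122) and Zscan10 by -0.51 (SE 0.11, adjusted p = 0.00321) on the log2 scale in edgeR. At any fold, 16.9% of genes had an adjusted p under 0.05 in this comparison, and with the 2-fold limit 1.3% of genes and none of the members were called. Dppa5a was at 654 to 1030 CPM early and at 175 (the small library) to 1260 CPM late, so the groups overlapped, and the 8 libraries of 72 h held the low values with a median of 459 CPM. Utf1, Pou3f1 and Otx2 differed by -0.44, -0.35 and 0.25, with adjusted p of 0.119, 0.0821 and 0.147 in edgeR. With the replicate number as a block, Pou3f1 was at -0.35 with an adjusted p of 0.0447 in edgeR, still under the 2-fold limit. That block assumes that equal numbers pair across groups. From 4 to 24 h, however, the replicate differences of WT-H3.3 and H3.3K27L correlated at -0.602 to -0.711.

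The share of counts on long genes moved with several general members. Among the 11 early libraries with a low share, Pou5f1 was at 632 to 844 CPM, and among the 5 early libraries with a high share it was at 478 to 641. For Utf1 the corresponding ranges were 125 to 203 and 44.3 to 93.1 CPM, and for Dppa4 83.9 to 126 and 47.9 to 66.9 CPM, which do not overlap. Fgf4 went the other way, from 194 to 243 CPM at a low share to 244 to 422 CPM at a high one. When the share entered the edgeR fit as a covariate, a step added after the data were seen, Zscan10 kept an adjusted p of 0.00606 with a log2 difference of -0.40. Pou5f1 then differed by -0.15 and Dppa5a by -0.24, with adjusted p of 0.0587 and 0.0614, and Fgf4 by -0.25 with an adjusted p of 0.0272. The late group holds 11 of the 16 libraries with a high share.

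**Figure D2:**
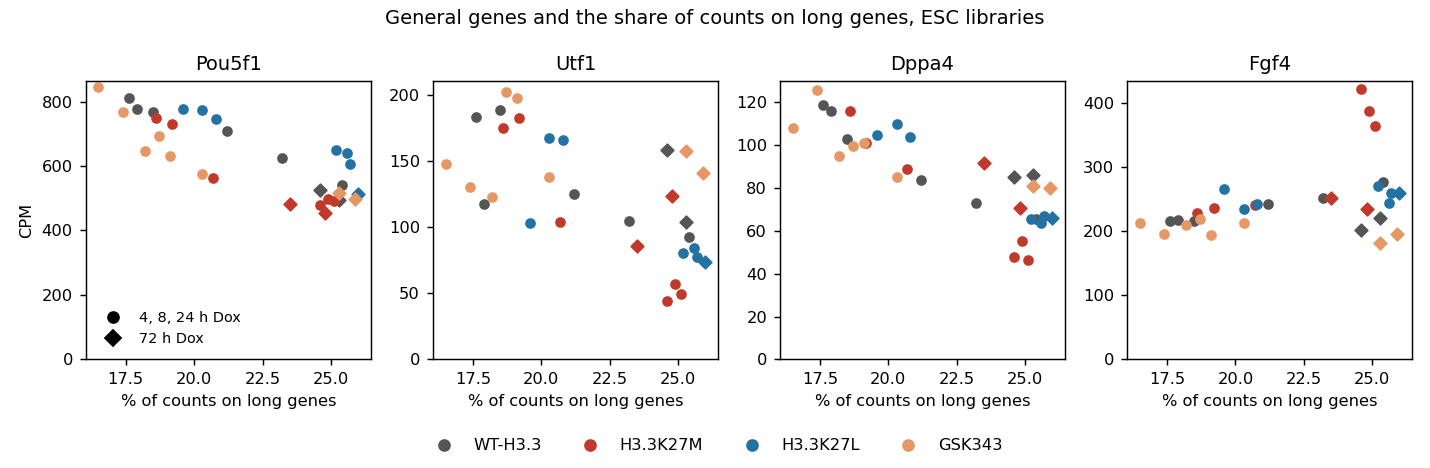
CPM of 4 general genes (vertical axis) in the 31 ESC libraries with at least 1000000 counts, against the percent of counts on genes with more than 6000 bases of exon (horizontal axis). Colour gives the line or treatment and diamonds mark 72 h of Dox. Pou5f1, Utf1 and Dppa4 are lower on average, and Fgf4 in 3 H3.3K27M libraries higher, at shares above 22%.

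Over the same 31 libraries, the 5 genes whose log2(CPM + 0.5) followed Pou5f1 most closely were Adat2, Cdk7, 2410001C21Rik, Eif2b5 and Mesdc2, with Pearson r of 0.919 to 0.934. None of them is in the pluripotency lists, and the libraries share the differences in depth and gene length given above. For Otx2 the closest were Zfp455, Cabp1, Zan, Chd1l and Zfp69, with r of 0.587 to 0.683. Among the members, Utf1 and Dppa4 varied together with r of 0.826, while Utf1 and Fgf4 varied oppositely with r of -0.834. These are descriptions over 31 libraries, not tests.

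In RA-treated cells the general members other than Sall4 were lower than in ESCs, and Pou5f1 and Fgf4 were close to 0 CPM. Against the ESC libraries of the same 3 lines, 6 of the 7 general members were called lower in the 6 RA libraries, where 21.7% of 16478 genes were called lower and 26.1% higher (47.8% in all). The median log2 fold change of the general members was -4.10, against 0.01 over all genes. Of the primed members, Otx2 and Pou3f1 were called lower and Fgf5, which passed the filter only through its RA counts, higher. Fgf4 and Otx2 passed the filter only through other libraries, where they are high.

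Pou5f1 fell from a mean of 615 ± 132 CPM in ESCs (SD, n = 24) to 2.77, 2.42 and 5.36 CPM at 24 h and to 0, 0 and 0.306 CPM at 72 h, given in the order WT-H3.3, then the methionine and the leucine mutant. The groups did not overlap, and edgeR fitted a log2 difference of -8.28 (SE 0.38) with an adjusted p of 3.74e-21. Pooled over lines, the level at 24 h was 3.1 CPM, 198-fold below ESCs. At 72 h a single count was left over 3 libraries, 0.116 CPM with a 95% counting interval of 0.00294 to 0.647.

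Fgf4 was nearly lost as well. From 254 ± 61.9 CPM in ESCs (SD, n = 24) it went to 0, 0.314 and 0.134 CPM at 24 h and to 0.447, 0 and 0.918 CPM at 72 h, which edgeR fitted as -10.08 on the log2 scale (SE 0.30) with an adjusted p of 4.16e-27. It had 12 counts in all 6 RA libraries together. Fgf4 passed the filter of this fit only through the ESC libraries, where it is high, so that p is no independent support. Dppa5a was at 36.4, 24.5 and 84.3 CPM at 24 h and at 22.3, 24.2 and 34.9 CPM at 72 h, against 175 (the small library) to 1260 in ESCs.

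Utf1, Zscan10 and Dppa4 fell but kept counts in every RA library. The lowest Zscan10 value, in H3.3K27M at 72 h, lay under the 3-count floor of 0.966 CPM there. Utf1 was at 4.56 to 6.11 CPM at 24 h and 8.69 to 10.7 CPM at 72 h, against a lowest ESC value of 14.6 CPM in the small library and 44.3 CPM otherwise. Zscan10 ranged from 0.322 to 34.4 CPM over the RA libraries and differed from ESCs by -3.27 on the log2 scale (SE 0.35), with an adjusted p of 1.16e-10 in edgeR. Dppa4 held 18.6 to 50.2 CPM, a log2 difference of -1.76 with SE 0.21 and an adjusted p of 1.25e-09 in edgeR. The Dppa4 range overlapped that of ESCs, and that of Zscan10 did so through the small library, at 29.2 CPM.

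Sall4 was the exception. It was at 245, 155 and 406 CPM at 24 h and at 130, 161 and 384 CPM at 72 h, against 205 (the small library) to 435 CPM in ESCs, so both H3.3K27L values and the WT-H3.3 value at 24 h lay inside the ESC range. Its log2 fold change of -0.72 (SE 0.15) had an adjusted p of 3.91e-05 in edgeR and was below the 2-fold limit. Sall4 is also known from extraembryonic endoderm, and markers of that tissue were high in the same cells. Of the 6 endoderm markers, all 6 were called higher in RA-treated cells, with Gata6, Dab2, Sox17 and Sox7 rising by 8.49, 7.19, 7.19 and 6.71 on the log2 scale. Their part in the Sall4 level was not tested, and in bulk RNA fewer cells of a type and less RNA per cell cannot be told apart.

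The 3 primed members parted ways under RA. Fgf5 was higher in every RA library, at 4.95, 4.27 and 2.41 CPM at 24 h and 4.02, 5.47 and 0.918 CPM at 72 h, than in any of the 24 ESC libraries, which reached 0.803. It rose by 4.52 on the log2 scale (SE 0.39) with an adjusted p of 3.73e-13 in edgeR, yet the level stayed within a few CPM. Fgf5 passed the filter of this fit only through the RA libraries, where it is high, so that p is no independent support. The lowest RA value, 0.918 CPM, is 3 counts in its library. Otx2 was reduced to 3 counts in all at 24 h and to 0 at 72 h, from 4.24 ± 2.09 CPM in ESCs (SD, n = 24), which is -5.98 on the log2 scale (SE 0.52) with an adjusted p of 3.87e-13 in edgeR. Against the floor of 3 counts over the 72 h group, ESCs were at least 12.2-fold higher. Otx2 did not pass the filter in the RA libraries alone, so its p is no independent support either. Pou3f1 was at 1.29 to 4.02 CPM, a log2 difference of -1.14 with SE 0.24 and an adjusted p of 8.14e-05 in edgeR, and its range overlapped that of ESCs. That call depended on the scaling, since edgeR with median-of-ratios size factors gave -0.90, under the 2-fold limit, as did DESeq2.

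The rest of the pluripotency lists divided in the same manner. Of 9 naive genes tested, 8 were called lower and none higher, with Esrrb at -8.38, Nr5a2 at -7.39 and Nanog at -9.57 on the log2 scale, and the median of the list was -6.97, that of Nr0b1. Of 10 other general ESC genes, 9 were called lower, among them Sox2 at -4.57, Tdgf1, the Nodal co-receptor, at -10.14, Gdf3 at -7.12 and L1td1 at -2.65. Of 12 other primed or formative genes, 5 were called higher and 5 lower, among them Nodal at -4.09 and Zic5 at -2.97 and, upward, the cadherin Cdh2 at 3.94 and Sall2 at 2.19. FGF receptors and ERK response genes were split as well, with 5 of 9 higher and 4 lower. Fgfr2 rose by 6.75 and Fgfr3 by 5.48, the ERK feedback phosphatase Dusp6 rose by 3.01, and the ERK target Etv5 was at -4.31.

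**Figure D3:**
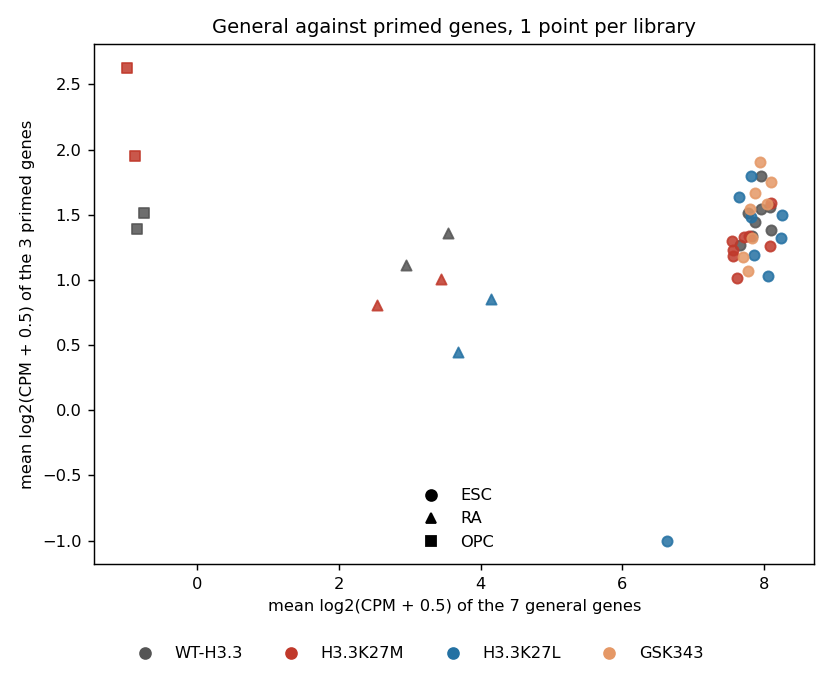
Mean log2(CPM + 0.5) of the 7 general genes (horizontal axis) against that of the 3 primed genes (vertical axis), with 1 point per library, marked by state and coloured by line. The horizontal axis separates the 3 states. On the vertical axis the H3.3K27M OPC libraries are highest, and the lowest point is the ESC library of 68378 counts.

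Averaged over genes, the general members set the 3 states apart, whereas the primed members did not set ESCs apart from the others. The mean log2(CPM + 0.5) of the general members was 7.84 ± 0.29 in ESCs (SD, n = 32), 3.71 ± 0.38 at 24 h of RA (n = 3), 3.06 ± 0.58 at 72 h (n = 3) and -0.88 ± 0.10 in OPCs (n = 4), with no overlap between ESCs, RA-treated cells and OPCs. The mean of the primed members was 1.35 ± 0.49 in ESCs, 1.08 ± 0.26 and 0.79 ± 0.34 in RA-treated cells and 1.87 ± 0.56 in OPCs, and the ESC libraries, from -1.0 to 1.9, overlapped both other states, while the RA libraries, from 0.45 to 1.36, lay below the OPC libraries, from 1.39 to 2.63. The general minus primed difference was 6.49, 2.63, 2.27 and -2.75 in the same order, to be read between states only. These are descriptions with no test, and 1 gene can carry the primed mean, as Pou3f1 did in OPCs.

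Between 24 and 72 h of Dox, the RA libraries changed widely, with 42.9% of 12265 genes called, and 3 of 8 tested members were among them. Pou5f1 and Zscan10 fell in each of the 3 lines, by 4.59 (SE 0.87, adjusted p = 0.000474) and 2.59 (SE 0.34, adjusted p = 2.4e-05) on the log2 scale in edgeR with line as a block. Utf1 rose in each line, by 1.14 (SE 0.28, adjusted p = 0.00316), from 4.56 to 6.11 CPM at 24 h to 8.69 to 10.7 CPM at 72 h. Dppa4 was also higher at 72 h in each line, by 0.92 (SE 0.18, adjusted p = 0.000694), which is under the 2-fold limit. Sall4, Fgf5 and Pou3f1 differed by -0.07, 0.04 and 0.07, with standard errors of 0.17, 0.42 and 0.46. The share of counts on long genes fell from 30.1 to 33.1% to 19.8 to 20.9% between the same libraries, and time and this share cannot be told apart here. When the 24 h library of H3.3K27L was left out, the Utf1 difference was 0.96 and Pou5f1 did not pass the filter, which left 1 member called.

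**Figure D4:**
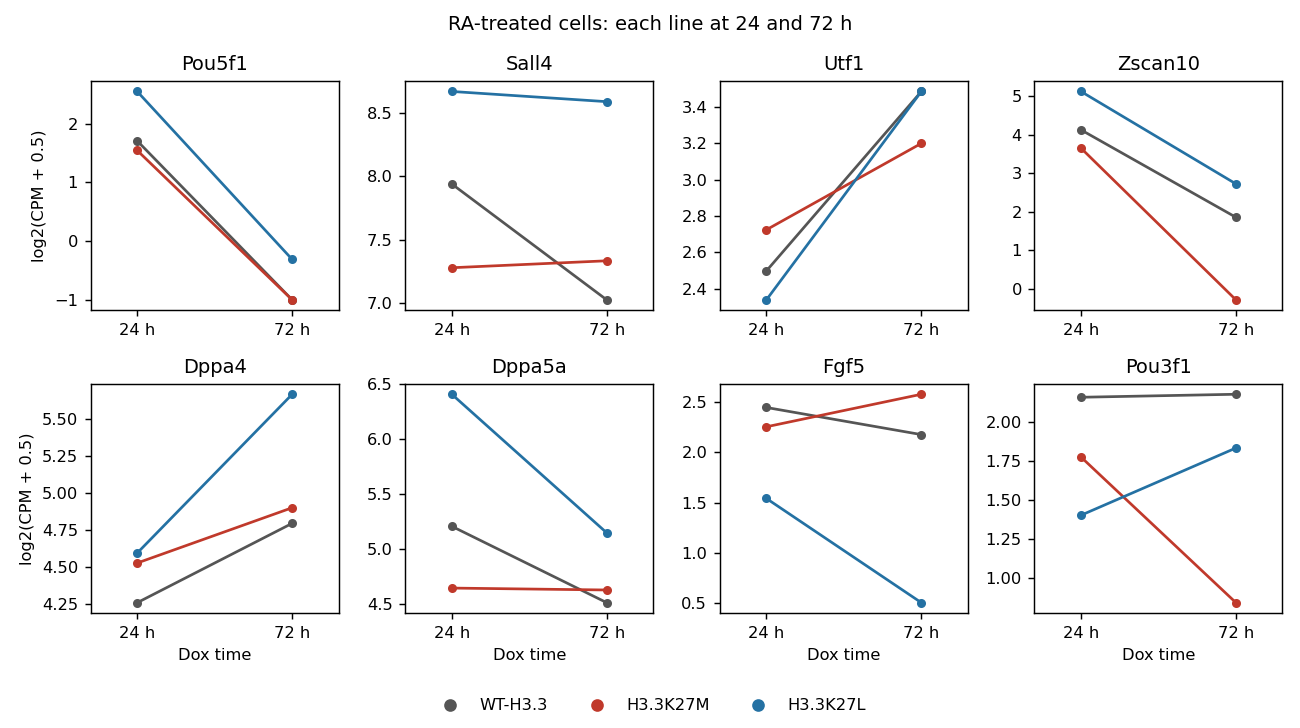
log2(CPM + 0.5) of 8 members in RA-treated cells at 24 and 72 h of Dox, with 1 library per point and a line joining the libraries of each cell line. Pou5f1 and Zscan10 descend and Utf1 and Dppa4 ascend in all 3 lines, and the H3.3K27L line is highest for Sall4 and lowest for Fgf5 at both times.

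Among RA-treated cells, the lines were compared with the 2 times pooled, as 2 libraries a line. In this fit the difference between the times counts as spread, and 0.0% of genes were called for H3.3K27M (15 genes at an unadjusted p under 0.05, and 0 by DESeq2) and 0.0% for H3.3K27L (187 at an unadjusted p under 0.05, and 5 by DESeq2). No member was called. With Dox time as a block, the H3.3K27L comparison called 3.68% of genes, and 2 of 8 tested members were among them. Sall4, at 406 and 384 CPM in H3.3K27L against 245 and 130 in WT-H3.3, was higher by 1.12 (SE 0.21, adjusted p = 0.0109) on the log2 scale. Dppa5a, at 84.3 and 34.9 CPM against 36.4 and 22.3, was higher by 1.00 (SE 0.26, adjusted p = 0.0357). Both p-values are from edgeR. They measure only the spread left after line and time, since each line had 1 library at each time. Zscan10, Pou5f1 and Dppa4 differed by 1.06, 1.04 and 0.62, with adjusted p of 0.103, 0.385 and 0.133 in the same edgeR fit, and Fgf5 by -1.28 with an adjusted p of 0.183. Fgf5, at 2.41 and 0.918 CPM in H3.3K27L, lay below both WT-H3.3 values, 4.95 and 4.02. The same H3.3K27L libraries had the highest sums of extraembryonic endoderm markers, 2050 and 1450 CPM against 998 and 509 in WT-H3.3 and 386 and 510 in H3.3K27M, and their part in these differences was not tested.

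For H3.3K27M in RA-treated cells, the blocked edgeR fit gave Sall4 -0.25 (SE 0.21), Utf1 0.00 (SE 0.32) and Zscan10 -0.70 (SE 0.37), and no adjusted p was below 0.879. Whether the drop from ESCs to RA-treated cells depended on the line was tested as an interaction. For H3.3K27M it called 0.00607% of genes, for H3.3K27L 0.109%, and no member in either. The 1 gene called for H3.3K27M was Sox2, the partner of Pou5f1, whose loss was smaller than in WT-H3.3 by 1.52 (SE 0.23, adjusted p = 0.00132, edgeR). For H3.3K27L, the general members with the most positive interaction values were Fgf4 at 1.32 (SE 1.17), Dppa5a at 1.17 (SE 0.58), Pou5f1 at 0.96 (SE 0.76) and Sall4 at 0.90 (SE 0.35), with adjusted p of 0.97, 0.694, 0.892 and 0.489 in edgeR.

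OPCs had lost the general members. Pou5f1, Utf1, Zscan10, Dppa4, Dppa5a and Fgf4 were at 0 counts in all 4 libraries, where 3 counts over the 4 libraries would be 0.0775 CPM. Against this floor, ESCs of the same 2 lines were at least 7820-fold higher for Pou5f1, 10900-fold for Dppa5a, 3390-fold for Fgf4, 1540-fold for Utf1, 1190-fold for Zscan10 and 1090-fold for Dppa4. Sall4 kept 6 and 12 counts in WT-H3.3 and 0 and 3 in H3.3K27M, 0.543 CPM in all, 591-fold below ESCs. All 7 were called lower, where 37.9% of genes were called lower and 29.0% higher (66.9% in all), and with the 6 at their bounds the median of the 7 was at least 1540-fold. None of the 7 passed the filter in the OPC libraries alone. They entered this fit through the other libraries, where they are high, so these calls are no independent support.

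The primed members did not all follow them. Pou3f1 was higher in OPCs than in ESCs, by 3.39 on the log2 scale (SE 0.20) with an adjusted p of 3.32e-18 in edgeR, and all 4 OPC libraries, at 20.4 CPM or more, were above the highest ESC library of the same 2 lines at 9.24 CPM. Otx2 was lower, by -2.68 (SE 0.41, adjusted p = 1.78e-07, edgeR), and Fgf5 was at 0 to 0.533 CPM with an adjusted p of 0.609. Other lists set the context. All 9 naive genes tested and 9 of 10 other general genes were called lower, among them Klf4 at -3.74, Tbx3 at -5.89, Fbxo15 at -7.59 and Trim71 at -6.39. The neural progenitor gene Hes5 was called higher, at 7.88, as were OPC genes in 6 of 6 tested, with Olig1 at 4.79 and Nkx2-2 at 9.52. Fibroblast markers were called higher in 7 of 7. These calls average the 2 lines. In H3.3K27M OPCs, Pdgfra, at 0.533 to 0.723 CPM, lay within the ESC range of 0.297 to 3.16, taken without the small library. Sox10 there, at 0.133 to 0.482 CPM, also lay within its ESC range of 0 to 1.17. In WT-H3.3 OPCs both were above these ranges, as were the other OPC genes in both lines.

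In OPCs, H3.3K27M differed from WT-H3.3 in 28.0% of 12511 genes. Only Pou3f1 and Otx2 passed the filter. Pou3f1 had 253 and 215 counts in WT-H3.3, 20.4 and 20.5 CPM, and 1658 and 1287 counts in H3.3K27M, 221 and 155 CPM. The lines did not overlap, and H3.3K27M was higher by 3.21 (SE 0.18, adjusted p = 2.66e-07, edgeR) on the log2 scale. Otx2 had 15 and 18 counts in WT-H3.3 and 4 and 0 in H3.3K27M, so it passed the filter through the WT-H3.3 libraries alone. In H3.3K27M it was called lower, by -2.44 (SE 0.80, adjusted p = 0.025, edgeR). Since the filter kept Otx2 through the group where it is high, that p is no independent support. That call rests on few counts: DESeq2 gave an adjusted p of 0.0936, and without the 72 h library of WT-H3.3 or of H3.3K27M edgeR gave 0.131 or 0.161. Fgf5 had 0 and 0 counts in WT-H3.3 and 4 and 2 in H3.3K27M, which puts H3.3K27M at least 2.95-fold above the floor of 3 counts over the 2 WT-H3.3 libraries. It did not pass the filter and was not tested.

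**Figure D5:**
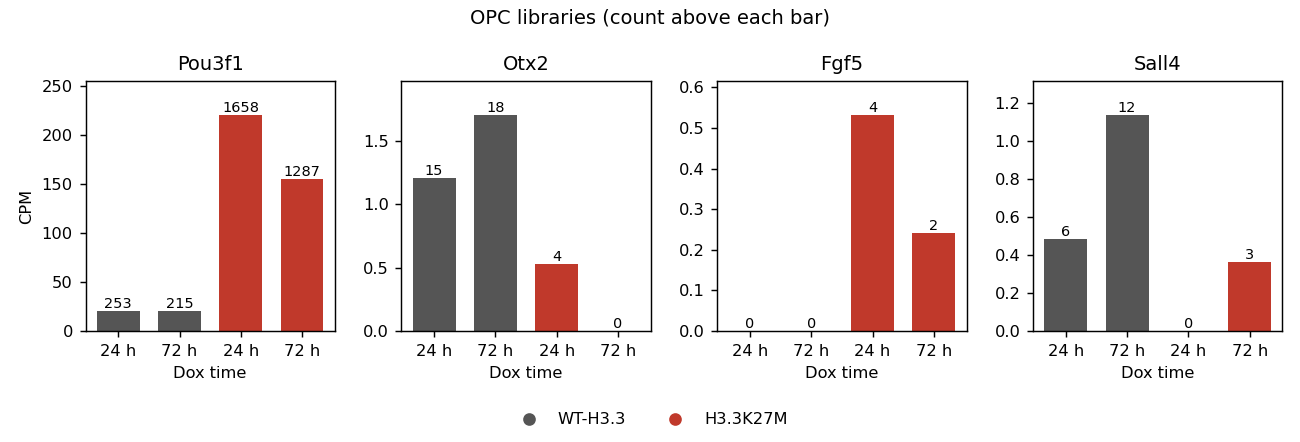
CPM in the 4 OPC libraries of the 4 members with any OPC counts, by line and Dox time, with the number of counts above each bar. Pou3f1 is higher and Otx2 and Sall4 lower in both H3.3K27M libraries than in both WT-H3.3 libraries, and Fgf5 has counts in H3.3K27M alone.

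The 2 lines differed in much else at this stage. The 7 fibroblast markers summed to 520 to 574 CPM in WT-H3.3 and 21.7 to 26 CPM in H3.3K27M, and 6 of them were called lower, as were all 4 endoderm markers tested, with Col3a1 at -6.01 and Dcn at -5.50. Of the 6 OPC markers, 4 were called higher in H3.3K27M, among them Cspg4 at 3.20, Olig2 at 1.73 and Nkx2-2 at 1.40, and 2 lower, with Pdgfra at -4.79. Among 7 tested genes of the other primed or formative list, Sox3, Tead2, Sall2 and Dnmt3b were called higher, by 2.99, 1.60, 1.03 and 1.18, and 1 was called lower. Sox3 and Sall2 are also neural genes. Naive genes were split, with Klf4, Klf5 and Tbx3 lower by -3.94, -4.23 and -4.97 and Esrrb higher by 3.25. How far the make-up of the cultures carries the Pou3f1 difference was not tested. The pair of libraries of a line also differ in Dox time. The sample titles number them as replicates 1 and 2 whereas the count table numbers both as replicate 2, so whether they are separate differentiations is not settled, and these p-values measure only the spread between such libraries.

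The test of whether the step from ESCs to OPCs differed between the lines called 13.0% of genes and, of the primed members, Pou3f1, Otx2 and Fgf5. Fgf5 passed the filter of this fit only through the RA libraries, which the contrast does not use, so its call is no support for a difference. The difference was 3.61 (SE 0.49, adjusted p = 8.11e-07) for Pou3f1 and -2.81 (SE 0.80, adjusted p = 0.0129) for Otx2 in edgeR. In ESCs neither gene was called between these lines. The Otx2 difference rests on the few OPC counts given above. The Otx2 call was lost with ESC libraries of 24 and 72 h only (adjusted p = 0.0639, edgeR) and without the 72 h OPC library of WT-H3.3 (0.0715) or of H3.3K27M (0.197). For Fgf5 the adjusted p was 0.00158 in edgeR, on 22 and 1 counts in the ESC libraries and 0 and 6 in the OPC libraries of WT-H3.3 and H3.3K27M. Sall4, the general member still detected, differed by -1.86 (SE 0.71) with an adjusted p of 0.0863 in edgeR.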

How the data were processed

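Gene counts from 42 RNA-seq libraries were used; the other 113 samples are not analysed here. Per the labels and the study's methods, the authors made single-end libraries with a 3′ or a whole-transcript kit, aligned reads to mm9 with STAR 2.7.1 and deposited gene counts that were not normalized. Of 55471 identifiers, 32589 had a symbol. Counts were tested with edgeR 4.0.16 (R 4.3.3), using TMM scaling, its filter on low counts and the quasi-likelihood test with Benjamini-Hochberg adjustment over all genes tested. A call needed an adjusted p under 0.05 and a change of over 2-fold, as in the study. The 1435 genes of chromosome 8 were left out. ESC lines were compared in 1 fit over all ESC libraries with Dox time as a term. States were compared in 1 fit over all 42 libraries, with contrasts over the lines they share. DESeq2 1.42.0, other scalings, filters and blocks, and leaving out each library were the alternatives. The tests were tested on simulated data with known changes.

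Every member is named, and other genes are named from fixed lists. The members and lists were chosen with earlier results of these data known. The study's methods describe biological replicates made weeks apart; the labels do not give the date or culture of a library, and RA-treated cells had 1 library per line and time. Replicate numbers paired WT-H3.3 with H3.3K27M ESC libraries: deviations of same-numbered libraries from their group means correlated with r of 0.611 to 0.716 at the 4 times. In RA-treated cells, the 72 h minus 24 h differences of the lines correlated with r of 0.921 to 0.951. With 1 library per line and time, this cannot show pairing. CPM used all counts of a library, and scores used log2(CPM + 0.5). Counting intervals are exact Poisson intervals at 95%.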

Additional observations from a re-analysis of the deposited data

Results flagged for a closer look

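In groups of 8 ESC libraries, 40 combinations of gene and group were searched for a library far from the others, and 9 stood apart, where chance gives about 1 in 20. The H3.3K27L library of 68378 counts (72 h, replicate 2) was the lowest for 6 of them, at 205 CPM for Sall4, 14.6 for Utf1, 29.2 for Zscan10, 117 for Fgf4, and 0 for both Otx2 and Pou3f1. The H3.3K27M library of 72 h, replicate 2, was the lowest of its group for Sall4 at 235 CPM and for Dppa5a at 447 CPM. For Fgf5, the H3.3K27M library of 8 h, replicate 1, was the highest at 0.106 CPM, which is 1 count where the others had 0.

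The step from ESCs to OPCs was called different between H3.3K27M and WT-H3.3 for all 3 primed members. Fgf5 passed the filter of that fit only through the RA libraries, which the contrast does not use. The interaction in edgeR was 3.61 for Pou3f1 (adjusted p = 8.11e-07), -2.81 for Otx2 (adjusted p = 0.0129) and 7.94 for Fgf5 (adjusted p = 0.00158) on the log2 scale. The Fgf5 value depends on the prior count, since WT-H3.3 OPCs had 0 counts, and is no bound. The Otx2 value rests on few OPC counts.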

How the results depend on the processing

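The number of members called was equal in 322 of 339 alternatives and within 1.5 times in 333, and 1018 of 1038 log2 fold changes of members kept their direction and side of the threshold. Members called in H3.3K27M ESCs went from 0 to 1 with no filter on low counts (Fgf5), late against early from 0 to 3 with no fold threshold, and H3.3K27L against WT-H3.3 in RA-treated cells from 0 to 2 with Dox time as a replicate block. Leaving out 1 library gave 1 to 4 members for 72 against 24 h of RA, with 1 left without the H3.3K27L library of 24 h. In OPCs it gave 1 to 2, and DESeq2 gave 1. The replicate block changed no other member's call, although it took Pou3f1 in late against early Dox to an adjusted p of 0.0447. Otx2 in H3.3K27L ESCs went to -1.99 without the 72 h library of replicate 1, which leaves only the library of 68378 counts at that time, and ranged from there to 0.44 when 1 library was left out. With a pseudocount of 5, the general minus primed difference was 4.89 in ESCs, 1.70 at 24 h of RA and -1.34 in OPCs. Genes called for H3.3K27M in ESCs numbered 2, against 23 with the replicate block, 16 with it in the compared libraries only, 4 with DESeq2, 159 with no filter and 35 with the share of counts on long genes, and 0 to 133 when 1 library was left out (133, 79 and 23 without H3.3K27M replicate 1 of 8, 4 and 24 h). For H3.3K27L they numbered 485, against 772 with no filter, 75 with 24 and 72 h only, 5 at 72 h only, 1146 at any fold and 133 to 646 when 1 library was left out (133 without 72 h, replicate 1). For GSK343 25 genes were called with no filter. Late against early gave 183, against 369 genes with no filter on late against early Dox, 76 with a 10-count filter and 150 to 350 when 1 library was left out. In RA-treated cells, H3.3K27L gave 0, against 451 with the Dox time block, 5 with DESeq2 and 7 with no filter, and its interaction 18, against 236 and 47 with the block and DESeq2. The OPC interaction gave 2146, against 1322 with late ESC libraries. The H3.3K27L interaction ranged from 0 to 171 when 1 library was left out, and that of H3.3K27M in RA-treated cells, 1 gene, from 0 to 4. At any fold, 8516 genes passed for 72 against 24 h of RA, 6448 for H3.3K27M OPCs, 11833 for RA-treated cells against ESCs and 2385 for late against early. The cause of these shifts was not tested. With crossed pairing, chosen after seeing the data because same-numbered WT-H3.3 and H3.3K27L libraries of 4, 8 and 24 h correlated at -0.602 to -0.711, H3.3K27L gave 652 genes and GSK343 0. Depth limits Fgf5 in ESCs and the members at 0 in OPCs.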
